A study of Drosophila melanogaster with 2 samples.

Results

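Closely spaced multi-summit sites are places where the authors' reproducible peak list for the zinc-finger protein CG1603 holds more than 1 summit within 300 bp. They were chosen by summit position alone: a summit belonged to a site if another summit of the same list lay within 300 bp on the same chromosome, and neighbouring summits were chained. This gave 172 of 8963 summits (1.92%) in 85 sites, of which 83 had 2 summits and 2 had 3. The other 8791 summits had no neighbour within 300 bp and are called single-summit peaks. All values of the peak lists (signal, spacing, replicate support) come from the readout that selected the sites and are given as descriptions with no test, whereas annotation and sequence were not used by the selection and were tested against single-summit peaks.

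The data were chromatin immunoprecipitation with sequencing (ChIP-seq) from whole *Drosophila melanogaster* embryos of mixed sex, aged 0 to 16 h, of 1 transgenic line that stably carries CG1603 with GFP at its C terminus. The description names an antibody against GFP while the antibody field names CG1603. The series holds 1 group with 2 biological replicates, numbered 2 and 3, and chromatin sonicated to 200 to 800 bp. The whole embryo mixes many cell types, so that summits of a site need not come from the same cells, and the driver of the transgene is not given in the sources used here.

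A ChIP-seq summit is the position in an enriched interval where the caller placed the highest signal, and neighbouring summits can mark separate contacts on DNA or a single broad enrichment. CG1603 is known to control nuclear-encoded mitochondrial genes. In fly promoters the DNA replication-related element (DRE), TATCGATA, is the site of the transcription factor DREF, and the boundary protein BEAF-32 binds clusters of the shorter core CGATA that lies within it. Motif 1, GGTCACACT, is the site of the promoter factor M1BP.

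The sequence of 5 sites is shown because they span the range from strong pairs to pairs with clustered cores beside only one summit; they were picked after their values were seen. Each runs from 30 bases before the first summit (position 31) to 30 bases after the last, on dm6, from the RefSeq release 6 assembly, and lies outside annotated exons of protein-coding genes. Capitals mark every match of CGATA on either strand (also read as TATCG) and of the DRE. The first summit is the one with the lower coordinate throughout.
SmD1 (chr3L:12734623-12734913, plus strand): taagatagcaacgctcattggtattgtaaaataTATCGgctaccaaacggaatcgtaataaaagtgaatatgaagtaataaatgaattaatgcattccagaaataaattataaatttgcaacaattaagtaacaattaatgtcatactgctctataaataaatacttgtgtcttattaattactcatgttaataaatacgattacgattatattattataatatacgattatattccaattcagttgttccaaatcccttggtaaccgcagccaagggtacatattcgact
4E-T (chr4:959589-959856, plus strand): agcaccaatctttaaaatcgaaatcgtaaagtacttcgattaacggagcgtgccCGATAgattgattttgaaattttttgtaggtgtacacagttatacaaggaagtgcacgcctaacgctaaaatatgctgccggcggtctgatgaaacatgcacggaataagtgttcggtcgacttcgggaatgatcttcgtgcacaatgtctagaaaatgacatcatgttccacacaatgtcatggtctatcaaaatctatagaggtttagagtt
stx (chrX:10744989-10745249, plus strand): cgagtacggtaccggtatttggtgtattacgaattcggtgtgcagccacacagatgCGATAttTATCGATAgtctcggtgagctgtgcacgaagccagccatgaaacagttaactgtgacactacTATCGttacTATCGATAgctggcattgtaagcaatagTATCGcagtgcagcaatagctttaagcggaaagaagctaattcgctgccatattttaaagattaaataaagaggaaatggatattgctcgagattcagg
stv (chr3L:13476889-13477148, plus strand): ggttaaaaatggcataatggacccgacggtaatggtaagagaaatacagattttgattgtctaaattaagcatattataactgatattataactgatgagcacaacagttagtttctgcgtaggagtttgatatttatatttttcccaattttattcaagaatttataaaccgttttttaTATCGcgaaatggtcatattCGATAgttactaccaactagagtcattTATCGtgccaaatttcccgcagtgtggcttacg
Irk1 (chr3R:23176606-23176868, plus strand): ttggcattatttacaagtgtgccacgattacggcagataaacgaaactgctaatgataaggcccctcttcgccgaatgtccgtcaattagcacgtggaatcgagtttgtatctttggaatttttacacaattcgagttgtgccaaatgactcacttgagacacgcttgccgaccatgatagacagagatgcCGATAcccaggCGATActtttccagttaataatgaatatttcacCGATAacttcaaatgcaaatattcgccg
At SmD1, which encodes a core protein of spliceosomal snRNPs, the only core in this stretch lay 5 bases after the first summit, and a DRE within 50 bp of the second summit lay beyond the bases shown. At 4E-T, which encodes a partner of the cap-binding protein eIF4E, the single core lay 26 bases after the first summit. At stx, which encodes a regulator of Polycomb protein levels, the stretch held 7 cores and 2 DREs. Each DRE also counts as a core on either strand, so these counts overlap. Of the 7 cores, 3 lay within 50 bp of the first summit and 0 within 50 bp of the second. The stretches at stv, a co-chaperone gene, and at Irk1, a potassium channel gene, each held 3 cores, and at both all 3 lay within 50 bp of the second summit.

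Summits within sites were spaced almost uniformly. The 87 neighbouring pairs were 199 to 290 bp apart (median 204, quartiles 201 and 217), 58 of them at up to 210 bp and 69 at up to 220 bp. No pair was closer than 199 bp, and this was also the smallest spacing in the pooled list and in the list of each replicate. The widest pairs inside the limit were at eIF3h (290 bp), Hsc70-5 (280 bp) and CG32196 (275 bp), and the nearest pairs outside it were at Nadk1a (342 bp), wun (362 bp) and Nhe3 (364 bp). Signals of these outer pairs were 203 and 206 at Nadk1a, 430 and 433 at wun and 429 and 162 at Nhe3, and those of the inner pairs were 574 and 511 at eIF3h, 454 and 311 at Hsc70-5 and 259 and 157 at CG32196.

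The order of the signals was nearly fixed too. The summit with the lower coordinate was the stronger in 86 of 87 pairs (98.9%), and the exception was Rap1, a small GTPase gene, with 229 at the first summit and 266 at the second. Among pairs of the same list 301 to 400 bp apart the lower-coordinate summit was stronger in 6 of 12, and at 401 to 500 bp in 56.9% of 144. In the pooled list of 30000 peaks the share was 98.1% of 930 pairs at 199 to 210 bp, 234 of 260 at 211 to 220 bp, 72.2% of 623 at 221 to 300 bp and 43.8% of 169 at 301 to 400 bp. The lists of replicates 2 and 3 gave 97.8% and 97.6% at 199 to 210 bp and 51.5% and 48.7% at 301 to 400 bp. What produced this order was not tested, and which summit of a site is stronger is read below as a property of the deposited list.

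**Figure D1:**
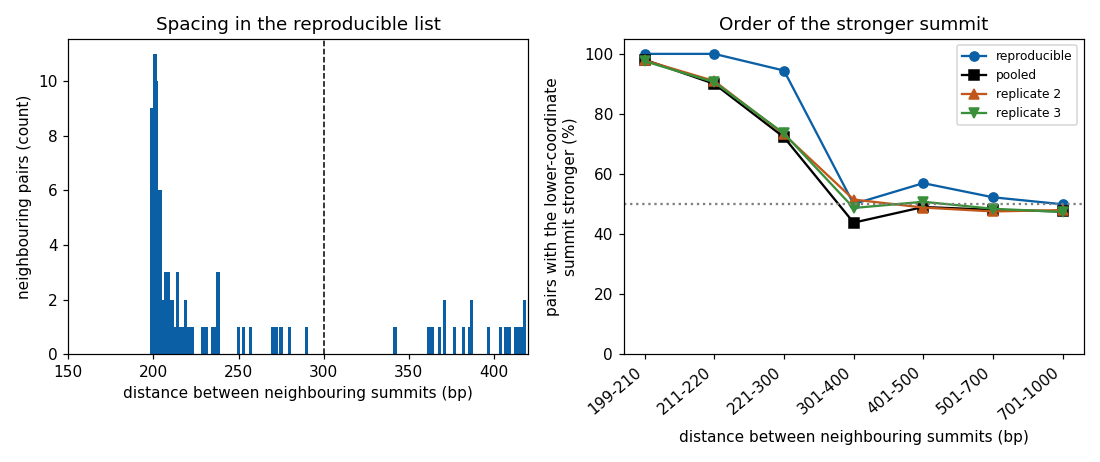
Left, count of neighbouring summit pairs of the reproducible list by their distance in bp, with the 300 bp limit dashed. Right, share of pairs (%) in which the lower-coordinate summit had the higher signal, by distance, for 4 peak lists. Pairs start at 199 bp, and the share falls from all 58 reproducible pairs at 199 to 210 bp to 6 of 12 at 301 to 400 bp.

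The strongest summits of sites were mostly of middle rank. Signal is the authors' own value per peak and its scale is not stated. The strongest summits of sites had signals of 163 to 6544 (median 394), the weakest 141 to 2894 (median 204), and single-summit peaks a median of 312. The strongest summits had a median rank of 3446 among the 8963 peaks (quartiles 1845 and 5046). Of the 85 sites, 3 had a summit among the 100 strongest of the 8963 peaks and 16 among the 1000 strongest. The weakest summit was in the weaker 50% of the list at 72. The ratio of the strongest to the weakest signal ran from 1.02 to 12.1 (median 1.78), was at least 2 at 32 sites and below 1.5 at 26. The summits shared a single deposited interval at 17 sites, lay in overlapping intervals at 39 and in separate ones at 29.

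**Figure D2:**
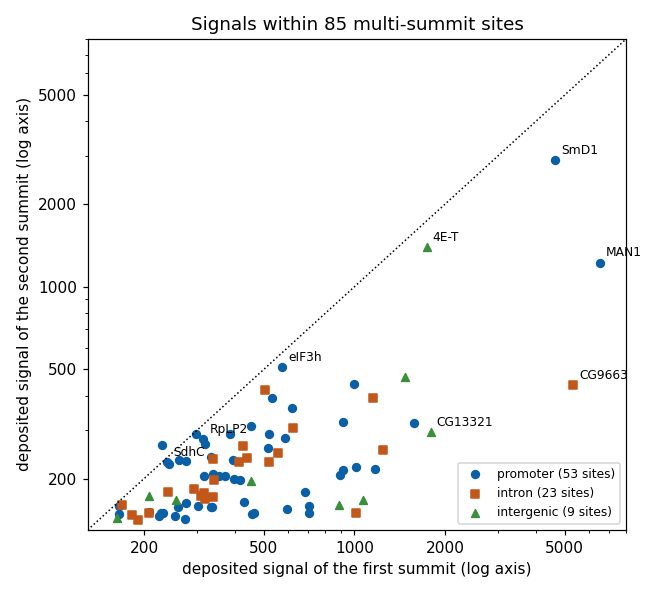
Deposited signal of the first against the second summit of each site (both log axes), with symbols for the annotation of the strongest summit and a dotted line at equal signals. All points but Rap1 lie below the line, and SmD1 and 4E-T stand out with a strong second summit (2894 and 1397).

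The replicates differed in how many sites they split. A match was a summit within 50 bp anywhere in the replicate's list of 30000 peaks, so a matched summit can be weak. Replicate 2 held a separate match for every summit of 55 sites and replicate 3 of 64 sites. Both replicates did so at 40 sites, neither at 6, replicate 2 alone at 15 and replicate 3 alone at 24. With only the strongest 8963 peaks of each replicate, every summit was matched in both at 16 sites. At the 40 sites found in both, the spacing differed between replicates by a median of 5 bp and at most by 44 bp, and the first summit was stronger in both replicates at 37. Replicate 2 had a lone summit at 30 sites, 14 of them between the summits of the site, and replicate 3 a lone summit at 18, 6 of them between. Of single-summit peaks, 94.3% had a match in replicate 2 and 94.3% in replicate 3, whereas the strongest summit of a site had one at 76.5% and 83.5% of sites and the weakest at 71.8% and 85.9%.

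**Figure D3:**
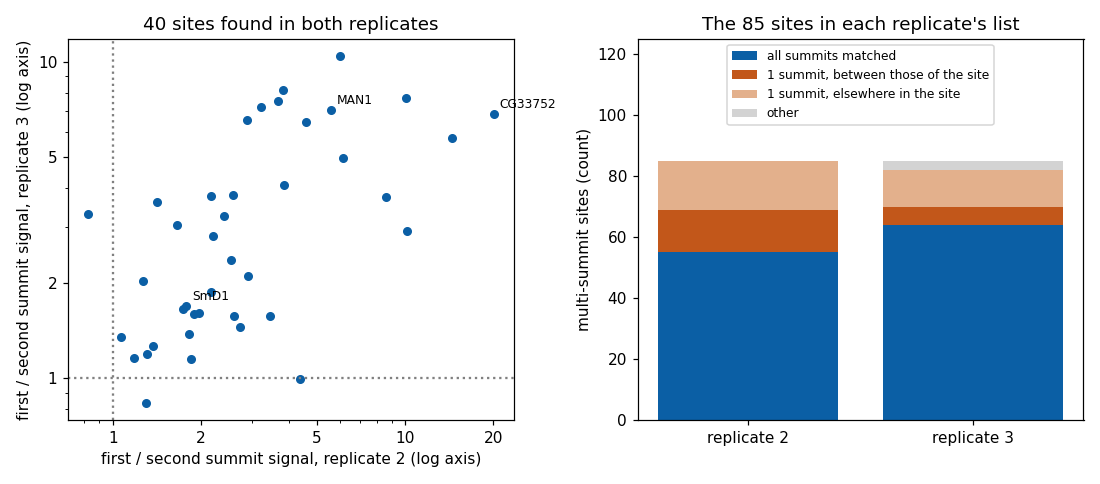
Left, ratio of first to second summit signal in replicate 2 and replicate 3 (log axes) for the 40 sites found in both, with dotted lines at equal signals. Right, count of the 85 sites by how each replicate's list resolves them. Replicate 2 splits 55 sites and replicate 3 splits 64.

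The strongest site lay at a promoter shared by MAN1, which encodes an inner nuclear membrane protein, and Chi, which encodes a cofactor of LIM-homeodomain proteins (chr2R:24033542-24034708). Its summits, 202 bp apart, had pooled signals of 6544 and 1225. Replicate 2 gave 3328 and 598 and replicate 3 gave 3077 and 438, also 202 bp apart in each. The first summit lay 6 bp from the TSS of MAN1.

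The promoter between SmD1 and Ptp69D, a receptor tyrosine phosphatase gene with roles in axon guidance, held the strongest second summit of any site (chr3L:12734364-12735330). The pooled signals were 4626 and 2894 at a spacing of 230 bp. They were 2413 and 1353 in replicate 2 and 2140 and 1266 in replicate 3, at spacings of 214 and 227 bp. The first summit was the stronger in both replicates, as in the pooled list (ratio 1.60).

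CG9663 had the highest ratio between its summits, 12.1, with signals of 5313 and 438 (chr2L:3301937-3302584, intron). Replicate 2 had a lone summit there, 4 bp from the first, with signal 2706, while replicate 3 had 2399 and 313. The second summit of this site therefore rested on replicate 3 and the pooled reads. CG5895 was alike, with pooled signals of 1068 and 167, a lone replicate 2 summit of 500 and replicate 3 summits of 542 and 59.0. At CG3107 (pooled 891 and 161) both replicates had a lone summit, of 504 and 412, at 20 and 22 bp from the first.

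Outside promoters, 4E-T on chromosome 4 had strong summits of similar signal, with pooled signals of 1736 and 1397, replicate 2 signals of 978 and 748 and replicate 3 signals of 746 and 623 (chr4:959246-960025, 1227 bp from the nearest TSS). CG13321 and CG13896, both intergenic, had pooled signals of 1792 and 296, and of 1471 and 470. Their second summits had signals of 108 and 236 for CG13321 and 59.2 and 111 for CG13896 (replicates 2 and 3), and that of CG13321 ranked 2700 in replicate 3 and 6565 in replicate 2. In an intron of fra, the netrin receptor gene (nearest TSS CG33752), pooled signals were 1240 and 254, with 605 and 30.2 in replicate 2 and 645 and 94.5 in replicate 3. Introns of egh, a glycosphingolipid synthesis gene, and of simj, a NuRD complex gene, held pairs of 1157 and 393 and of 1013 and 150, each found in both replicates.

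Other strong promoter sites were at bsk, the fly JNK gene, with CG31717 (1168 and 216, and 575 and 223 in replicate 2 and 573 and 151 in replicate 3), and at CG3552 with CG3437 (1578 and 319). Both sites with 3 summits were at promoters. At CG32147 with Pex3, a peroxisome biogenesis gene, pooled signals fell along the chromosome from 919 to 322 and 178, and at Drat they were 587, 280 and 265. Replicate 2 had a match for all 3 summits at both and replicate 3 for 2 of 3 at both. The closest pairs, 199 bp apart, included by, which encodes tensin (532 and 392), where replicate 2 had a lone summit midway, 103 bp from the first.

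Genes with such sites were counted in 16 gene lists and over all protein-coding genes. Of 13968 protein-coding genes, 81 had a summit of a site within 500 bp of a TSS (0.58%), while 4919 had some reproducible summit there. RpLP2, a stalk protein gene, was the only one of 93 cytosolic ribosomal protein genes (83 with some summit), with signals of 314 and 279 and a lone summit in replicate 3. SdhC, a complex II subunit gene, was 1 of 15 TCA cycle genes, with 239 and 230 at a promoter shared with the growth regulator gene Tctp and a lone summit in replicate 3. The eIF3 subunit gene eIF3h was 1 of 52 translation factor genes, with a lone summit of 245 in replicate 2 and summits of 285 and 264 in replicate 3. Rpn13, a proteasomal ubiquitin receptor gene, was 1 of 48 proteasome genes, with pooled signals of 354 and 204, replicate 2 signals of 158 and 79.7 and replicate 3 signals of 187 and 117. The other 12 lists had none, among them 73 mitochondrial ribosomal protein genes (48 with some summit) and 40 complex I genes (27 with some summit). With at most 1 gene in a list, these counts are no result about any list. Hsc70-5, the mitochondrial Hsp70 gene, was outside the lists and had pooled signals of 454 and 311, with 222 and 175 in replicate 2 and 224 and 110 in replicate 3.

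Promoters were more frequent at sites than at single-summit peaks. The strongest summit lay within 500 bp of a TSS of a protein-coding gene at 53 of 85 sites (62.4%, Wilson 95% interval 51.7 to 71.9%), compared with 46.5% of single-summit peaks (odds ratio 1.91 with a 95% interval of 1.20 to 3.06, Fisher's exact test, two-sided, adjusted p = 0.0127). Introns held 23 and intergenic sequence 9 of the sites. Among promoter sites, 25 of 53 (47.2%) had TSSs of 2 or more genes within 500 bp, compared with 31.4% of promoter peaks with a single summit (odds ratio 1.95, interval 1.09 to 3.49, adjusted exact p = 0.0228). These pairs of genes included SmD1 and Ptp69D, SdhC and Tctp, eIF3h and senju, and Rpn13 and CtsL1. The p values here were adjusted over 4 shares by the Benjamini-Hochberg method and describe peaks of these 2 libraries, which are not independent replicates. With the rule applied to the strongest 8963 peaks of replicate 3 alone, the odds ratios were 1.55 and 1.88 (adjusted exact p = 0.0512 for each), and with those of replicate 2 alone 2.61 and 2.28 (0.00115 and 0.0161). The strongest summits of sites had a higher median signal than single-summit peaks. Within 10 groups of signal the Mantel-Haenszel odds ratios were 1.62 and 1.84 and no longer passed the adjusted threshold of 0.05. Neither share passed at 250 bp from a TSS (odds ratios 1.29 and 1.54, adjusted exact p = 0.268 for each).

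Masked sequence was also more frequent. Bases masked as repeats in the reference made up 30% or more of the 150 bp to either side of the strongest summit at 19 of 85 sites (22.4%, interval 14.8 to 32.3%), compared with 11.9% of single-summit peaks (odds ratio 2.14 with an interval of 1.21 to 3.62, adjusted exact p = 0.0127). With replicate 3 alone the odds ratio was 1.67 (adjusted exact p = 0.0678) and with replicate 2 alone 1.94 (0.0485). In the stronger 50% of the list, which holds 14 sites, it was 0.674 (adjusted exact p = 1). With the limit at 50% masked bases in place of 30% it was 1.55 over all sites (adjusted exact p = 0.482). Chromosome X held 8 of 84 sites on the major arms (9.52%) against 18.5% of single-summit peaks (odds ratio 0.463, interval 0.193 to 0.963, adjusted exact p = 0.0334). This call was lost with either replicate alone (0.481 and adjusted exact p = 0.0512 with replicate 3, 0.672 and 0.405 with replicate 2). The sites on X included egh, stx and sog, and 25 sites lay on 2R, 20 on 3L, 17 on 3R, 14 on 2L and 1 on chromosome 4.

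**Figure D4:**
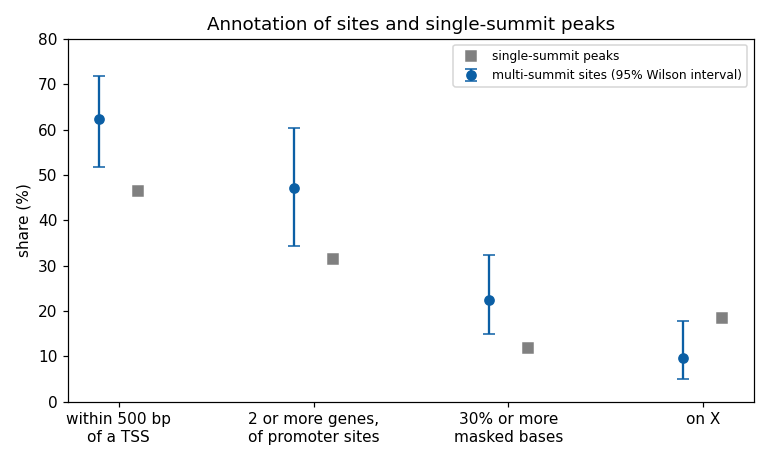
Share (%) of the 85 sites (circles, with Wilson 95% intervals) and of single-summit peaks (squares) with each annotation. The second category is among promoter sites and peaks, and X is among the major arms. The sites are higher for the first 3 categories (62.4%, 47.2% and 22.4%) and lower on X (9.52%).

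Promoter sites mostly lay upstream of the TSS. The comparisons of side and strand were added after the data were seen. In them a promoter site was one whose midpoint lay within 500 bp of a TSS. The midpoint of the site was upstream of its nearest TSS at 43 of 53 promoter sites (81.1%) and at 80.2% of promoter peaks with a single summit (odds ratio 1.06 with an interval of 0.522 to 2.38, Fisher's exact test, two-sided, adjusted p = 1). All summits were upstream at 36 sites, they lay to either side of the TSS at 12 and downstream at 5. That TSS was on the minus strand at 25 of 53 sites and 50.4% of single-summit peaks (odds ratio 0.878, interval 0.489 to 1.57, adjusted exact p = 1). The last summit was nearer to the TSS at 25 of 28 sites on the plus strand and the first at 18 of 25 on the minus strand. A further count took the 2-summit sites with either summit within 500 bp of a TSS, which is not the same set. The stronger summit was the nearer one at 22 of these sites and the weaker at 31. These counts follow the order of the summits along the chromosome and are given with no test.

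At the strongest summits none of 14 motifs passed against single-summit peaks (0% of those tested, and 0 at an unadjusted p below 0.05, two-sided Fisher's exact tests, Benjamini-Hochberg adjustment over the 14). In windows of 100 bp to either side 1 motif passed, the TATA box TATAAA, at 47.1% of sites and 28.0% of single-summit peaks (odds ratio 2.28, interval 1.45 to 3.59, adjusted exact p = 0.00321). Within 50 bp of the strongest summit, the BEAF-32 core was found at 21 of 85 sites (24.7%) and 23.2% of single-summit peaks. The DRE was found at 1 of 85 (1.18%) and 4.63% (odds ratio 0.245, interval 0.00612 to 1.41, adjusted exact p = 0.875), the only site being stx. With replicate 3 alone this odds ratio was 0.856 and with replicate 2 alone 0.350 (adjusted exact p = 1 for each). Motif 1 was found at 2 of 85 (2.35%), Phf5a, a splicing factor gene, and vimar, and at 2.57% of single-summit peaks (odds ratio 0.913, interval 0.108 to 3.44, adjusted exact p = 1).

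At the second summits the BEAF-32 core was more frequent than at the same position beside a single summit, where the rule allows no summit. This comparison was chosen after the data were seen. Within 50 bp of the second summit, CGATA was found at 31 of 85 sites (36.5%, interval 27.0 to 47.1%), compared with 11.9% of windows 204 bp beyond single-summit peaks (odds ratio 4.25 with an interval of 2.63 to 6.77, Fisher's exact test, two-sided, adjusted p = 8.03e-08). The DRE was found at 5 second summits (5.88%) and 0.432% of those windows (with an odds ratio of 14.4, its interval running from 4.31 to 37.9, and an adjusted exact p = 0.000362). These were 2 of 14 motifs (14.3%). For the core, the odds ratio was 2.32 with replicate 3 alone (adjusted exact p = 0.00894) and 4.23 with replicate 2 alone (7.78e-06). On the opposite side, 204 bp before the first summit, the core was in 15.3% of sites and 12.2% of single-summit peaks (adjusted exact p = 0.808). The comparisons at second summits set a called summit against a position that, by the selection rule, cannot be one. They therefore do not set a second summit apart from any other called summit. Against the summits of single-summit peaks themselves none of the 14 motifs passed, with 1 at an unadjusted p below 0.05 (two-sided Fisher's exact tests). There the core was in 23.2% of single-summit peaks (odds ratio 1.90, interval 1.18 to 3.02, adjusted exact p = 0.0885) and the DRE in 4.63% (odds ratio 1.29, interval 0.405 to 3.16, adjusted exact p = 1).

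The 5 second summits with a DRE were at SmD1, SdhC, Rpn13, Kap-alpha3, an importin gene, and CG7394. All 5 lay at promoters with a further gene within 500 bp (Ptp69D, Tctp, CtsL1, Son and Mob2). By the strongest summit, 25 of 53 promoter sites had TSSs of 2 or more genes, and no link with the DRE was tested. A DRE at the weaker but not the stronger summit was found at these 5 sites and the opposite at 1. Since the first summit was the strongest at 84 of 85 sites, this split is also one by coordinate, and no test of signal is drawn from it. No site held a DRE at both summits. The core was found at 20 first summits, at both summits of 9 sites and at either of 42, so that 43 of 85 sites had it at neither. Within 40 bp of the midpoint between the summits it was found at 6 sites. At stx, with its cores and DREs between the summits in the sequence shown above, replicate 2 had a lone summit 74 bp after the first (signal 197), whereas replicate 3 had summits of 251 and 70.0. At stv both replicates split the site (156 and 89.7 in replicate 2, 100 and 60.3 in replicate 3).

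**Figure D5:**
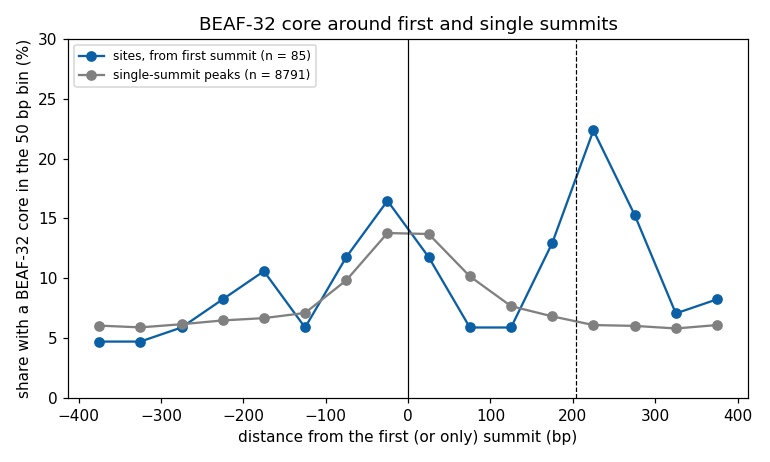
Share (%) of sites and of single-summit peaks with a BEAF-32 core in each 50 bp bin, by distance in bp from the first or only summit (solid line), with the median second summit dashed at 204 bp. Sites show a peak of 22.4% at 200 to 250 bp, where single-summit peaks have 6.09% and, by the selection rule, no summit. In the bins on either side of their own summit, single-summit peaks have 13.8% and 13.7%.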

How the data were processed

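The 2 ChIP-seq replicates were analysed from deposited peak lists on dm6, per the labels: 1 per replicate, 1 of the pooled replicates and the reproducible list, each called against a control, per the deposited description files. The sources used here give neither the aligner nor the peak caller. Each peak carries the authors' signal, of unstated scale, a summit and the deposited −log10 q value, which was not used. Read depth is unknown from peak lists.

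Ensembl release 115 gave the genes and the RefSeq release 6 assembly the sequence and its masked bases. Motifs were searched on both strands within 50 bp of summits: the DRE, Motif 1, the BEAF-32 core, the GAGA-factor site GAGAGAG, the dinucleotide repeat CACACACA, the E-box CAGCTG, the core promoter element TATAAA, the Zelda site CAGGTAG, the cyclic-AMP element TGACGTCA, the Ets site CCGGAAG, the palindrome TGCGCA, the Pho core GCCAT, the adenine tract AAAAAAA and the run GCGCGC. Of these, the BEAF-32 core lies within the DRE. A site was represented by its strongest summit. Tests were two-sided Fisher's exact and Mantel-Haenszel tests with Benjamini-Hochberg adjustment. Where a replicate was left out, the strongest 8963 peaks of the other were used. The members, lists, motifs and tests were chosen with earlier results of these data known. The 71 alternatives listed in advance gave 80 values, and 11 added after the data were seen gave 17.

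Named sites were the 12 strongest, the 5 with most summits, the 4 strongest outside promoters, the strongest per gene list, the 3 closest, the 3 widest and the 3 strongest that a replicate did not split; stx, stv, Irk1, Rap1, sog and the genes named for motifs were added after their values were seen. Python 3.11.15, NumPy 2.4.6, pandas 2.3.3, SciPy 1.17.1 and statsmodels 0.14.6 were used, and the statistics were tested on simulated peaks.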

Additional observations from a re-analysis of the deposited data

Results flagged for a closer look

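Closely spaced pairs of the pooled list that are not both in the reproducible list were used in no comparison of sites. The lower-coordinate summit was the stronger in 87.5% of these 1726 pairs, against 47.3% of 9252 such pairs at 301 to 1000 bp. They stood out because the same order of signals appeared among pairs that the reproducible list does not hold in full. A pair here can still include a summit of that list. The control behind the peak calls was not analysed here, so pairs farther apart served for comparison, and the cause was not tested.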

How the results depend on the processing

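No paired analysis was possible because the replicates form 1 group. Of 97 alternative values, 61 neither lost a call nor crossed to the other direction, or were counts that moved little. A further 22 lost a call without crossing, and 3 counts moved. The other 11 crossed to the other direction, some of them also losing a call. The cause was not tested. Chained within 200 bp (16 sites), the odds ratios were 2.51 for promoters, 1.79 for promoters of several genes, 2.44 for masked sequence, 1.03 for X and 1.38 for the DRE. Within 10 groups of signal they were 1.62, 1.84 and 0.483 (X), and in the stronger 50% of the list (14 sites) 1.43, 3.89, 0.674 (masked) and 0.390 (X). In that part of the list the stronger summit was nearer to the TSS at 55.6% of 2-summit promoter sites, which are fewer than the 14. At 250 bp from a TSS the odds ratios were 1.29 for promoters and 1.54 for several genes (adjusted exact p = 0.268 for each). At 1000 bp they were 1.67 and 1.41 (adjusted exact p = 0.0446 and 0.220). The masked odds ratio was 1.55 at 50% masked. With only sites matched in both replicates they were 2.03 for several genes, 1.31 for masked sequence, 0.503 for X and 1.34 for the minus strand. Over all 85 sites, the BEAF-32 core at the second summits gave 1.90 against single summits themselves. The DRE gave 1.29 at the weakest summit, Motif 1 gave 1.21 when chained within 400 bp, and 1.53 was the odds ratio for CGATA at both summits. In windows of 100 bp 1 motif passed, the TATA box. Leaving out each replicate gave odds ratios of 1.55 to 2.61 for promoters, 1.88 to 2.28 for several genes and 1.67 to 1.94 for masked sequence. They were 0.481 to 0.672 for X, 0.350 to 0.856 for the DRE, 0 to 1.04 for Motif 1 and 0.908 to 1.01 for the minus strand. Among sites with a DRE at only 1 of the 2 strongest summits, it was at the stronger in 20% to 50%. In the main setting such sites were few, 1 with it at the stronger summit and 5 at the weaker. The stronger summit was the nearer to the TSS at 49.1% to 53.5% of 2-summit promoter sites. Adjusted p over all alternatives ran from 0.000107 to 0.798 for promoters and 0.00178 to 0.455 for several genes (Fisher's exact and Mantel-Haenszel tests). It ran from 0.000699 to 1 for masked sequence and 0.00178 to 1 for X (same tests). For the core, the lowest adjusted exact p, 8.94e-08, was against windows beside single summits, where the rule allows no summit. Its highest, 0.0885, was against the single summits themselves, which is a different comparison. Except for the core, the lowest values came from counting every summit of a site. That setting takes neighbouring summits as independent, which they are not, so these lowest values are too small. Every summit was matched in both replicates at 25 sites within 25 bp and at 16 with the strongest peaks of each replicate. Peak lists give no depth, so weak second summits cannot be judged against counting error.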

Other observations

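A few sites outside the gene lists are given as single values, chosen after these were seen, with no enrichment computed and no theme drawn from them. In an intron of sog, which encodes a secreted BMP antagonist, pooled signals were 626 and 307, and in an intron of shn, which encodes a zinc-finger protein of BMP signalling, they were 504 and 421. The promoter of Su(z)12, a Polycomb complex gene, shared with Pfdn6, had 893 and 206, and that of Ino80, a chromatin remodeller gene, shared with Aptx, had 683 and 179.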
